A study of Homo sapiens with 21 samples.

Results

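The comparison described here sets coumarin at 100 µM against coumarin at 10 µM, the last 10-fold step of a dose series. Its members were chosen by their dose labels: 3 libraries at 100 µM and 3 at 10 µM, 6 of the 21 libraries of the series. All came from HepG2 by label, an established human liver cancer line, left for 6 h in new serum-free DMEM that held coumarin. The hepatocyte markers given below do not bear out that label. Coumarin occurs in plants such as tonka bean and is used for its scent, and it was diluted into the medium from a stock made in DMEM. The other libraries were 3 untreated ones and 3 at each of 0.001, 0.01, 0.1 and 1 µM. Samples of 1 dose are biological replicates according to the series' design. The untreated libraries took no part in any test below. The 12 libraries at 0.001 to 1 µM helped to estimate the spread between replicates, and the 3 at 1 µM entered a second test of the preceding dose step.

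Several of the genes that rose furthest over this step belong to the integrated stress response. In that response, kinases that sense amino acid shortage, unfolded protein, viral RNA or haem shortage phosphorylate the translation factor eIF2α. General translation then slows, while the messenger RNA of the transcription factor ATF4 is translated more. ATF4 pairs with other basic leucine zipper proteins and binds composite sites called C/EBP-ATF response elements, whose core can be written TGATGNAA, near genes for amino acid synthesis and uptake, tRNA charging and stress signalling. CHAC1, ATF3, ASNS and SESN2 are well-known targets and served as the markers of the response.

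The promoters of the 4 markers are shown because they carry, or lack, that core. A promoter is taken here as the 250 bases before 1 RefSeq start per gene to 50 bases after it (GRCh38.p14). Further starts of the same gene were not searched. The 250 bases before the start are printed 5′ to 3′ on the strand of the gene. Capitals mark matches to TGATGNAA on either strand. CHAC1 lies on the forward strand at chr15:40953221-40953470, ATF3 on the forward strand at chr1:212565157-212565406, ASNS on the reverse strand at chr7:97872409-97872658 and SESN2 on the forward strand at chr1:28259268-28259517.
CHAC1: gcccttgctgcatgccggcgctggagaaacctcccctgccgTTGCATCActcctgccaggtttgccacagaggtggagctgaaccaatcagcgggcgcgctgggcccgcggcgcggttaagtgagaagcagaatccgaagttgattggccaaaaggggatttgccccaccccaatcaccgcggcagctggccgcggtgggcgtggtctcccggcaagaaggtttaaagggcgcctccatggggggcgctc
ATF3: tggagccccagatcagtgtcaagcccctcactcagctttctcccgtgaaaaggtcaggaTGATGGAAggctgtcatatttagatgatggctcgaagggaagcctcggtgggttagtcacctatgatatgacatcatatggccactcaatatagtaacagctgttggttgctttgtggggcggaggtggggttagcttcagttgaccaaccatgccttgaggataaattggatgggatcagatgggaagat
ASNS: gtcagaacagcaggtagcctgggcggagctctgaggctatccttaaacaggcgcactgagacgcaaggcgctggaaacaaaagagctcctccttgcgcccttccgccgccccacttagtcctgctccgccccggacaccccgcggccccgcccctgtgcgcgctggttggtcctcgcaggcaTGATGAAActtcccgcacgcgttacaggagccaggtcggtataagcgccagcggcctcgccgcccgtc
SESN2: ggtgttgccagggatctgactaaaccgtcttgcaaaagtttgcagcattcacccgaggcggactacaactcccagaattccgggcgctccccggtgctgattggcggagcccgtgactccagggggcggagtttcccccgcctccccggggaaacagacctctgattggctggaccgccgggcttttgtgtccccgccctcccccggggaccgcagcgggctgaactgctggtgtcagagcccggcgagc
Counted from the start used, the match begins at base -209 in CHAC1, at -191 in ATF3 and at -68 in ASNS. In CHAC1 it lies on the opposite strand, so that it reads TTGCATCA. No match was found in this window of SESN2, nor in those of ADM2, DDIT3, TRIB3, STC2 and PCK2. That says only that these letters are not in the windows used. The window of TRIB3 began at base 381045 of chromosome 20, while the gene spans bases 362835 to 397559. Those of CHAC1, DDIT3, STC2 and PCK2 also lay inside the gene spans. Over promoters of this length, TGATGNAA occurred in 3.62% of the 35116 in the table, in 1.6% of the 10943 matched to genes tested here, in 12 of 265 (4.53%) of genes higher at 100 µM and in 5 of 335 (1.49%) of genes lower. The cyclic AMP response element TGACGTCA, searched on both strands and not found in the 4 stretches printed, occurred in 1.85%, 3.3%, 5.66% and 2.69% of the same sets. A promoter was matched for 10943 of the 16065 genes tested, under the share needed for a check over the whole set, so these shares are a description of the matched genes only.

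Gene counts per library totalled 29584787 to 37476080 in the 6 libraries, so that 3 counts correspond to 0.0801 to 0.101 CPM (counts scaled to a common library size), a limit for counting error alone. Between 5.67% and 6.38% of the counts were mitochondrial, and replicates differed beyond sampling noise, with a chi-square of 2.22 to 3.5 per degree of freedom. Of 20 hepatocyte markers, 11 had no read in the 6 libraries, the albumin gene ALB among them, and only FOXA1 reached 1 CPM. The summed level of the 20 was 12.1 to 12.8 CPM at 10 µM and 11.03 to 12.3 CPM at 100 µM. Biliary and simple epithelial markers summed to 4319 to 4420 CPM at 10 µM and 4029 to 4150 CPM at 100 µM, and mesenchymal markers to 1389 to 1414 and 1314 to 1359 CPM. Both sums were thus lower at 100 µM with no overlap, but only 4 of 9 and 7 of 12 members averaged 1 CPM or more. In the test described below, 1 of 5 tested epithelial markers was called lower and 0 higher. Of 10 tested mesenchymal markers 2 were called lower and 1 higher. The part of these levels in the results below was not tested. Endothelial and leukocyte markers were at or near 0. The hepatocyte markers thus do not bear out the label of a liver line, and the identity of the cells was not tested. All values that follow describe the sequenced cells, whatever the label. In bulk RNA a change in the mix of cells and a change per cell cannot be told apart.

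Of 16065 genes tested, 773 (4.81%) differed between 100 and 10 µM: 348 (2.17%) were higher and 425 (2.65%) lower at 100 µM (edgeR quasi-likelihood test, Benjamini-Hochberg adjusted p under 0.05). Changes were small: the median size of the log2 fold change was 0.22 among the 773, and the signed median over all tested genes was 0.0013. Rises reached further than falls. A change of 2-fold or more was found for 34 genes that rose and 10 that fell, and among genes called lower 303 of 425 changed by less than 0.25 on the log2 scale, against 147 of 348 called higher. Both 2-fold counts include genes of few reads. Of the 773, 720 averaged 1 or more on the log2(CPM + 0.5) scale over the 6 libraries. At that level and without overlap between the groups, no fall reached 2-fold, the furthest being ZBED2 (-0.99). Rises of 2-fold or more there ended with FOSB (1.04), ahead of HIST2H2BE (0.93). The number of calls depended on single libraries: it was 254 without replicate 1 of 10 µM, 306 without replicate 1 of 100 µM, 403 without replicate 3 of 100 µM, 419 without replicate 3 of 10 µM and 513 without replicate 2 of 100 µM.

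**Figure D1:**
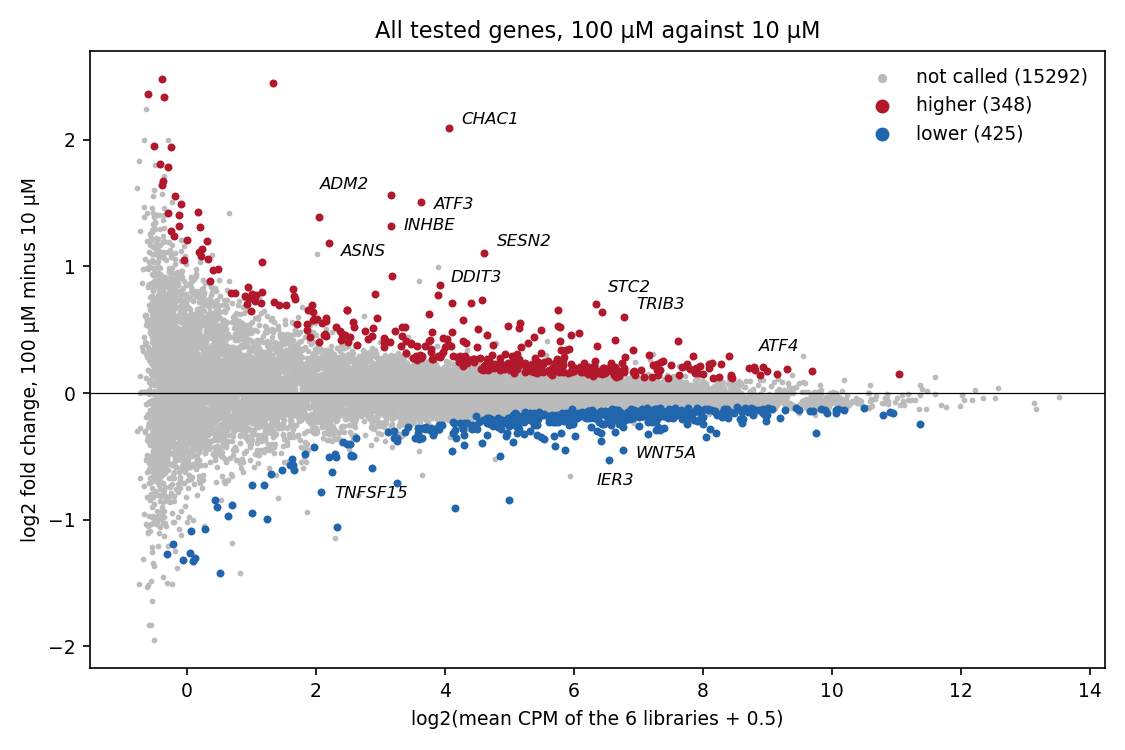
Each point is 1 of the 16065 tested genes: the horizontal axis gives the mean level over the 6 libraries as log2(CPM + 0.5), the vertical axis the log2 fold change of 100 µM against 10 µM. Red points (348) were called higher and blue points (425) lower at an adjusted p under 0.05; CHAC1 stands at 2.09, and most called genes lie within 0.5 of 0.

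CHAC1 encodes an enzyme that breaks down glutathione and was the gene that rose furthest among those that averaged 1 or more on the log2(CPM + 0.5) scale over the 6 libraries, the level asked of the largest changes named here. CHAC1 stood at 6.21, 6.43 and 5.88 CPM in the 3 libraries at 10 µM and at 25.9, 26.6 and 26.3 CPM in the 3 at 100 µM. The groups did not overlap, and all 3 libraries at 100 µM also lay above the 12 libraries at 0.001 to 1 µM, which ranged from 3.21 to 4.30 CPM. The rise was 4.26-fold (log2 fold change 2.09, SE 0.08, edgeR adjusted p = 1.5e-15). The gene spans bases 40952962 to 40956519 of chromosome 15 (GRCh38).

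ATF3 encodes a stress-induced partner of the ATF and AP-1 factors that acts mainly as a repressor. ATF3 stood at 5.33, 6.77 and 6.50 CPM at 10 µM and at 17.5, 17.7 and 17.6 CPM at 100 µM. At 10 µM the libraries lay close to those of the lower doses (4.72 to 6.11 CPM), and at 100 µM they were far above both. The log2 fold change was 1.51 (SE 0.09, edgeR adjusted p = 9.6e-12), or 2.84-fold.

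ASNS encodes asparagine synthetase, which makes asparagine from aspartate and glutamine. Its levels were 2.90, 2.31 and 2.29 CPM at 10 µM and 5.66, 5.73 and 5.67 CPM at 100 µM, again without overlap, against 1.52 to 2.63 CPM at the lower doses. ASNS rose by 1.18 on the log2 scale (SE 0.15, edgeR adjusted p = 9.3e-06). The same stretch of genome also holds AC079781.5 in the direction of ASNS and AC005326.1 in the opposite one. Whether counting used strand is not given in the sources used here, so reads of these genes could not be told apart. AC005326.1, a processed pseudogene, was itself called, at 0.0879, 0.0340 and 0.108 CPM at 10 µM and 0.395, 0.369 and 0.610 CPM at 100 µM, levels of few reads.

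SESN2 encodes sestrin 2, a leucine-sensing protein that restrains the growth kinase complex mTORC1. SESN2 stood at 13.4, 16.7 and 15.3 CPM at 10 µM and at 34.2, 32.5 and 31.1 CPM at 100 µM. Every library at 100 µM was above every library at 10 µM and at the lower doses, which reached 14.7 CPM. The log2 fold change was 1.11 (SE 0.07, edgeR adjusted p = 1.6e-10). All 4 markers were called in each of the 16 alternatives computed for them.

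**Figure D2:**
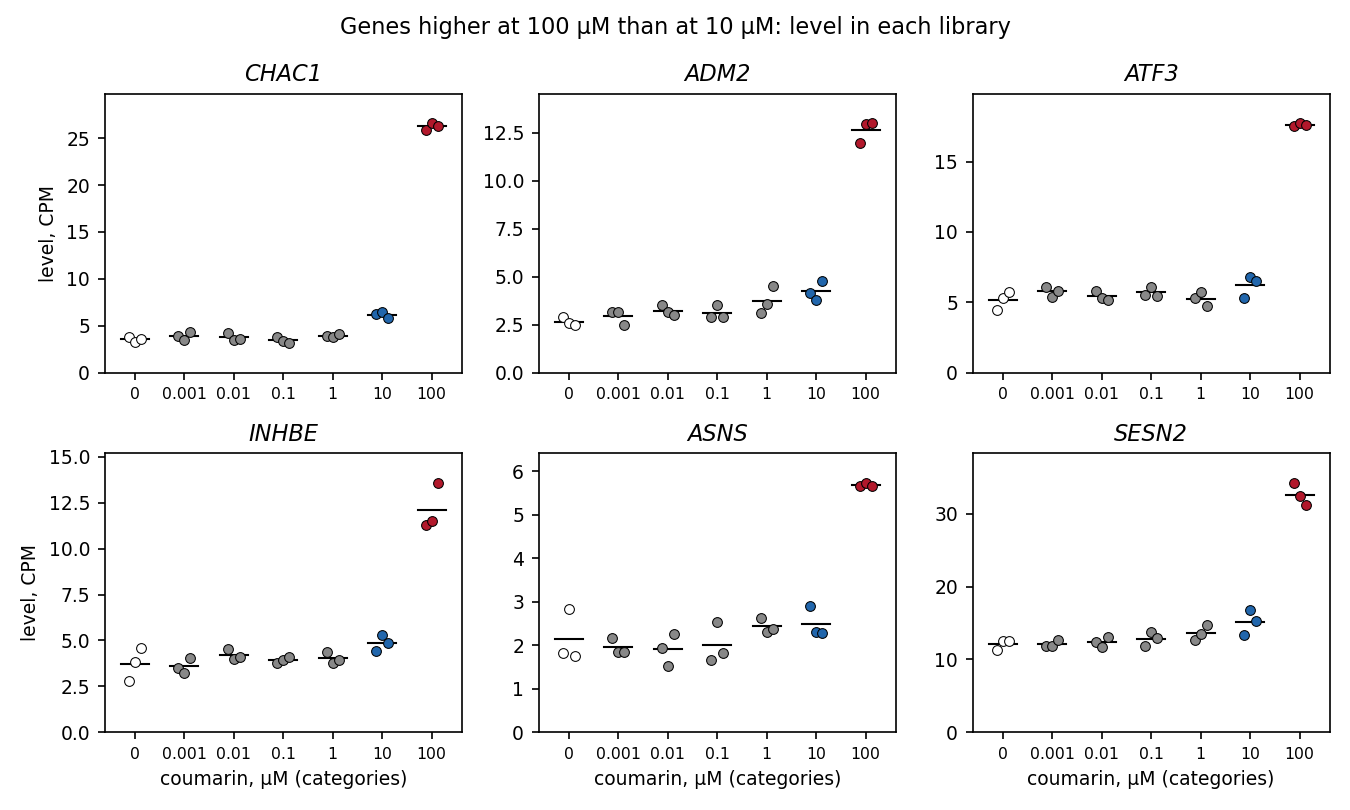
Levels in CPM (vertical axes, from 0) of 6 genes in each of the 21 libraries, by coumarin dose in µM (horizontal axis, doses as categories, 3 libraries each; bars are means). White points are untreated, grey 0.001 to 1 µM, blue 10 µM and red 100 µM: for all 6 genes the 3 red points lie above every other point, from 25.9 to 26.6 CPM for CHAC1.

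Among the transcription regulators of the response, 9 of 10 tested members rose, 0 fell and 1 was not called, with a median log2 fold change of 0.51 against 0.0013 for all genes tested. The 9 became 7 without replicate 1 of 100 µM, and 8 without replicate 1 or 2 of 10 µM or replicate 2 of 100 µM. This list, like those below, was drawn up with earlier results of these data known, so its count is a description. Counts of all lists stand against 2.17% called higher and 2.65% called lower over all genes tested. Where a list had 1 call, it describes that gene and not the list. ATF4 itself rose only a little, from 414, 416 and 409 CPM to 482, 470 and 475 CPM (log2 fold change 0.20, SE 0.04, edgeR adjusted p = 0.0027); its libraries at 100 µM were nonetheless all above the highest at the lower doses, 428 CPM. Read counts measure the messenger RNA and not its translation. DDIT3, which encodes the death-associated factor CHOP, went from 10.3, 10.9 and 10.4 CPM to 17.4, 18.5 and 18.3 CPM (log2 fold change 0.78). TRIB3, a pseudokinase that restrains ATF4 and CHOP, went from 90.2, 87.6 and 81.4 CPM to 134, 125 and 134 CPM (0.60).

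The bZIP partners moved with them: CEBPB rose by 0.53 and CEBPG by 0.50 on the log2 scale. The exception was ATF5, which codes for a close relative of ATF4 and was singled out after its values were seen. ATF5 stood at 37.5 to 42.7 CPM at 10 µM and 37.2 to 38.7 CPM at 100 µM, with overlap (log2 fold change -0.05, SE 0.06, edgeR adjusted p = 0.67). DDIT3 overlaps MARS and MBD6 on the other strand and MIR616 and AC022506.1 on its own.

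Upstream of ATF4, the kinases and phosphatase subunits that set eIF2α phosphorylation hardly moved at the level of RNA. Of 11 tested members 1 rose and 0 fell, and the median log2 fold change was 0.08. The riser was PPP1R15A, the stress-induced phosphatase subunit GADD34 that closes the feedback loop (29.3 to 30.5 CPM at 10 µM, 35.9 to 37.1 CPM at 100 µM, log2 fold change 0.27, edgeR adjusted p = 0.0032). EIF2AK3, the kinase PERK of the endoplasmic reticulum, stood at 20.3 to 23.1 CPM and 18.1 to 19.7 CPM (-0.22) and did not pass the test (adjusted p = 0.058).

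Enzymes that make amino acids formed the next group: 6 of 13 rose and 0 fell, with a median of 0.11. Besides ASNS these were PCK2, PSPH, GPT2, PSAT1 and PHGDH. PCK2, the mitochondrial phosphoenolpyruvate carboxykinase, rose from 44.7, 41.2 and 38.2 CPM to 67.5, 63.0 and 64.7 CPM (log2 fold change 0.65, SE 0.05, edgeR adjusted p = 7.7e-09). The serine pathway enzymes PSPH and PSAT1 rose by 0.42 and 0.29, PHGDH, which carries out its opening step, by 0.20, and the alanine transaminase GPT2 by 0.46. Of 10 one-carbon enzymes only the mitochondrial folate enzyme MTHFD2 was called (0.23), and SHMT2 stood at 282 to 294 CPM and 306 to 315 CPM without passing (adjusted p = 0.12).

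For glutathione and cysteine metabolism 2 of 13 members rose, CHAC1 and CTH, and 0 fell. CTH makes cysteine from cystathionine and stood at 23.9 to 26.2 CPM at 10 µM and 36.3 to 37.2 CPM at 100 µM (log2 fold change 0.53, edgeR adjusted p = 2.2e-07). CHAC2, the relative of CHAC1 that is expressed without stress, stood at 38.7 to 40.7 CPM and 35.5 to 37.6 CPM (-0.13, adjusted p = 0.13). The cystine importer SLC7A11 stood at 173 to 195 CPM and 210 to 215 CPM (0.22, adjusted p = 0.064), so its groups were apart while the test was not passed.

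Amino acid transporters followed in number rather than size: 7 of 18 rose, 0 fell, and the median was 0.09. The glycine carrier SLC6A9 rose by 0.35, SLC43A1 by 0.41, the glutamine carrier SLC1A5 by 0.24, SLC1A4 by 0.22 and the arginine carrier SLC7A1 by 0.16. The heavy chain SLC3A2 (766 to 783 CPM at 10 µM, 864 to 895 CPM at 100 µM) and its partner SLC7A5 (1950 to 2074 and 2178 to 2281 CPM) completed the 7. Without replicate 1 of 10 µM 3 of the 7 calls were counted, and 5 to 7 without any other single library.

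Aminoacyl-tRNA synthetases attach amino acids to tRNAs. Of 20 cytosolic aminoacyl-tRNA synthetases 6 rose (CARS, GARS, SARS, YARS, AARS and MARS) and 0 fell, a count that stayed at 6 with each library left out. CARS, for cysteine, rose furthest, from 34.1 to 35.7 CPM to 45.8 to 48.7 CPM (log2 fold change 0.44), followed by GARS (0.29) and SARS (0.25). RARS, for arginine, lay at 127 to 135 CPM and 114 to 121 CPM and did not pass (-0.13, adjusted p = 0.0505). Of 17 mitochondrial synthetases 1, VARS2, was called higher (0.17), and that call was lost when replicate 1 or 3 of 10 µM or any replicate of 100 µM was left out. The difference between the compartments was not tested.

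Secreted products of the response included some of the larger rises. Of 10 tested members 5 rose, 0 fell and the median was 0.61. ADM2, a peptide hormone of the adrenomedullin family, went from 4.16, 3.81 and 4.77 CPM to 11.99, 12.9 and 13.0 CPM (log2 fold change 1.57, SE 0.12, edgeR adjusted p = 1.4e-09). INHBE, the subunit of activin E, went from 4.43, 5.31 and 4.85 CPM to 11.3, 11.5 and 13.6 CPM (1.32, SE 0.10, adjusted p = 2.1e-09). Neither gene had a library at 10 µM near those at 100 µM.

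STC2, a secreted glycoprotein hormone, went from 56.7, 60.0 and 67.0 CPM to 102, 97.7 and 99.4 CPM (log2 fold change 0.70). GDF15, a stress cytokine that acts on the hindbrain, went from 15.9 to 18.6 CPM to 28.1 to 31.0 CPM (0.74). FGF21, a metabolic hormone whose promoter holds a TGATGNAA match at -54, had 1, 7 and 1 reads at 10 µM and 15, 16 and 16 reads at 100 µM. It was called (adjusted p = 0.015), but not by DESeq2 nor without replicate 1 or 3 of 10 µM or replicate 1 of 100 µM, and its fold rests on few reads.

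Restraint of mTORC1 and cell death were touched at single genes. Of 13 sestrin and mTORC1-restraint genes 2 rose, SESN2 and DDIT4 (159 to 180 CPM at 10 µM, 214 to 231 CPM at 100 µM, log2 fold change 0.41). Of 19 genes of the BCL2 family and death receptors 2 rose, and PMAIP1, which encodes the death-promoting protein NOXA, rose furthest (15.3 to 16.3 CPM, then 24.6 to 26.8 CPM, log2 fold change 0.71, edgeR adjusted p = 2.2e-07). The other, TNFRSF10B, the TRAIL receptor DR5, rose by 0.14 and lost its call without replicate 1 or 3 of 10 µM or any replicate of 100 µM. Among 19 p53 targets 3 rose (GADD45A, AEN and TNFRSF10B), 0 fell, and none of them was called without replicate 1 of either dose. SESN2, PMAIP1 and GDF15 were not placed on the p53 list, so this count holds only for the list as drawn up. CDKN1A, the cell cycle inhibitor p21, did not pass (0.19, adjusted p = 0.090). ULK1, a kinase that starts autophagy, rose by 0.47, and of the other tested autophagy genes ATG3 fell by 0.15 on the log2 scale (a call lost without replicate 1 or 3 of either dose) and 16 were not called.

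**Figure D3:**
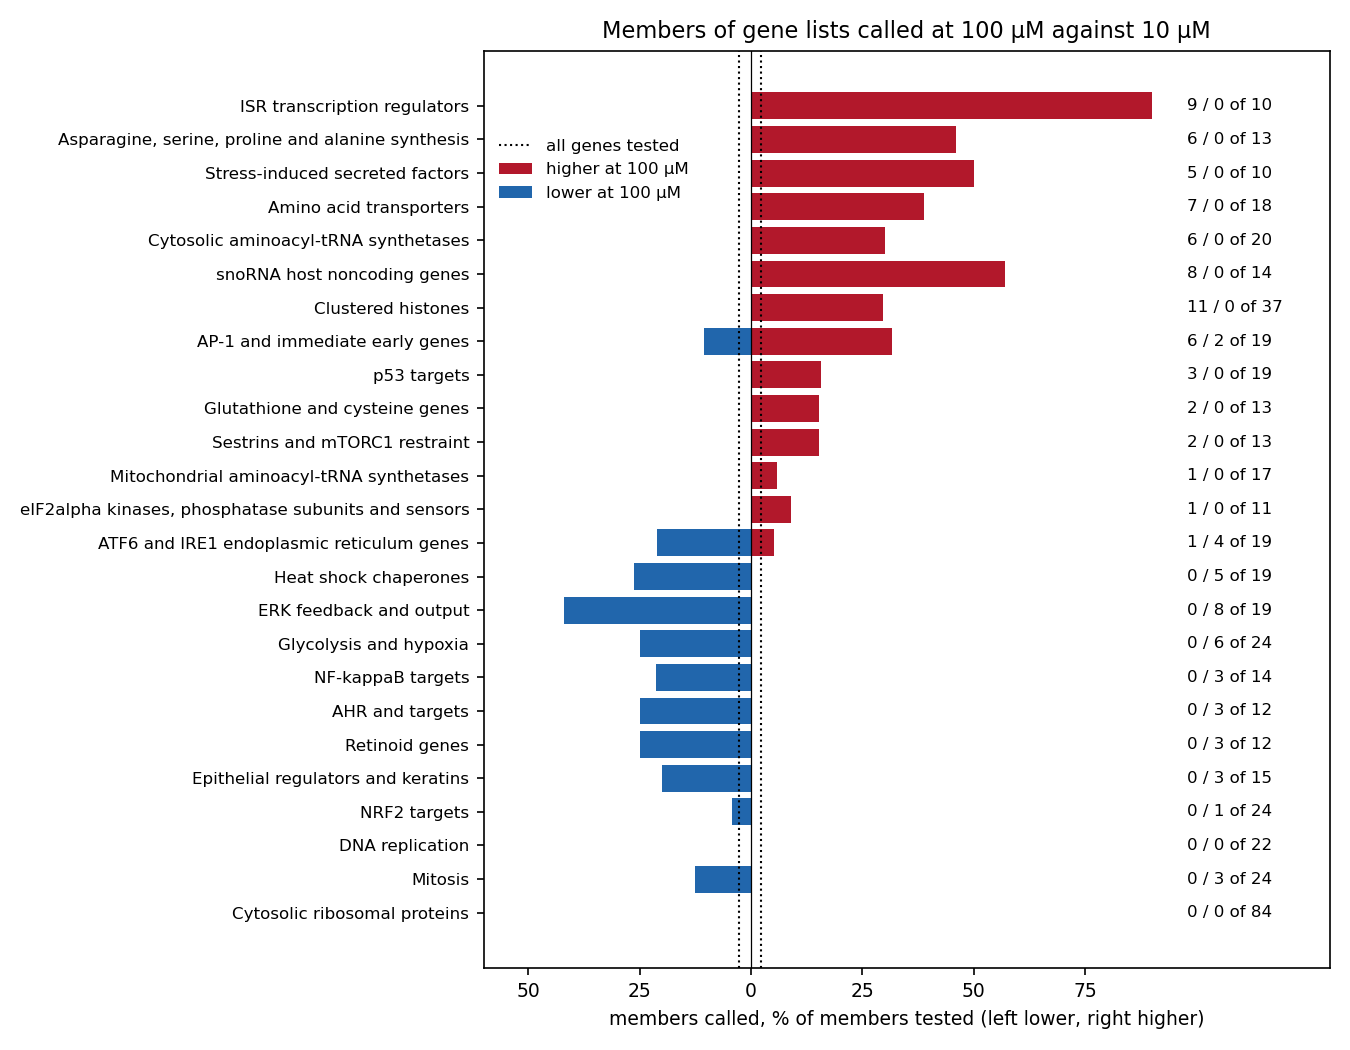
Bars give the percent of tested members of each gene list that were called at 100 µM against 10 µM (edgeR adjusted p under 0.05), to the right for higher and to the left for lower, with counts at the right edge as higher / lower of tested. Dotted lines mark the same percents over all genes, 2.17 and 2.65; 9 of 10 regulators of the integrated stress response rose and 8 of 19 ERK feedback genes fell.

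Other stress lists gave few risers. The endoplasmic reticulum genes that the sensors ATF6 and IRE1 drive counted 1 riser and 4 fallers among 19, with a median of -0.06. The chaperone HSPA5 (BiP) stood at 991 to 1012 CPM at 10 µM and 909 to 911 CPM at 100 µM and fell by 0.14 on the log2 scale (edgeR adjusted p = 0.012). MANF fell by 0.22, HSP90B1 by 0.13 and SDF2L1 by 0.22, whereas XBP1, the transcription factor that IRE1 splices, rose by 0.14, a call lost without replicate 1 or 3 of 10 µM or replicate 2 or 3 of 100 µM. The 4 falls were 1 to 3 with any single library left out.

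Heat shock chaperones counted 0 risers and 5 fallers among 19, with a median of -0.11. HSPA8, the constitutive HSP70, fell from 2774 to 2999 CPM to 2400 to 2450 CPM (log2 fold change -0.25, edgeR adjusted p = 0.00013), and its helper DNAJA1 fell by 0.22 on the log2 scale. HSPA4, DNAJB1 and HSPD1 fell by 0.17, 0.15 and 0.11. The 5 became 2 without replicate 1 of 10 µM and 3 without replicate 3 of 100 µM.

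Targets of NRF2, the factor of the oxidant response, counted 0 risers and 1 faller among 24, close to the background of 2.65% lower. The faller was TXNRD1, a thioredoxin reductase (log2 fold change -0.15), whose call was lost without replicate 1 or 3 of either dose, and the list counted 0 to 3 fallers with 1 library left out. The quinone reductase NQO1 stood at 660 to 719 CPM and 632 to 644 CPM without passing (adjusted p = 0.053). None of the 6 tested enzymes that act on coumarin or its products was called by edgeR, DESeq2 or limma, with 2 at an unadjusted p under 0.05 in edgeR, and 9 of that list had too few reads to test. Metallothionein and zinc genes counted 1 riser among 7, the sensor MTF1 (0.19), a call lost without any single library but replicate 3 of 100 µM.

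The aryl hydrocarbon receptor list, targets of a receptor for planar aromatic compounds, counted 0 risers and 3 fallers among 12. TIPARP, a target that feeds back on the receptor, fell from 63.1 to 70.0 CPM to 48.0 to 49.3 CPM (log2 fold change -0.45, edgeR adjusted p = 3.4e-07), below all libraries of the lower doses. CYP1B1 fell by 0.50 on the log2 scale (adjusted p = 0.042), a call lost without any replicate of 10 µM or replicate 1 or 3 of 100 µM. ALDH1A3, which makes retinoic acid and stands on both this list and the retinoid list, fell by 0.33. With it the retinoid enzyme RDH10 fell by 0.18 and the receptor RARG by 0.21, so that 3 of 12 tested retinoid genes fell and 0 rose.

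Immediate early genes moved in both directions. Of 19 tested, 6 rose (FOS, FOSB, JUN, KLF4, MYC and NR4A1) and 2 fell (IER3 and FOSL1). JUN, an AP-1 subunit, went from 11.5 to 13.8 CPM to 20.3 to 21.4 CPM (log2 fold change 0.71, edgeR adjusted p = 1.4e-06). FOS ranged widely, 49.0 to 77.5 CPM at 10 µM and 90.3 to 114 CPM at 100 µM (0.64), and its lowest library at 100 µM lay within the range of the lower doses, which reached 98.3 CPM. FOSB went from 1.09, 1.23 and 1.11 CPM to 2.70, 1.85 and 2.47 CPM (1.04, SE 0.22), its lowest library at 100 µM also within the range of the lower doses, up to 1.87 CPM. The 6 risers became 3 without replicate 3 of 10 µM or replicate 3 of 100 µM, and the 2 fallers became 1 with any single library left out.

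Among the lists, that of feedback and output genes of the kinase ERK counted the most fallers: 8 of 19 fell and 0 rose. The median was -0.18. The immediate early risers, FOS and MYC among them, were not placed on this list. The 0 therefore holds only for the list as drawn up. IER3, an early response gene that modulates ERK and survival signalling, stood at 109.1, 109.1 and 108.9 CPM at 10 µM and at 79.5, 69.8 and 78.0 CPM at 100 µM (log2 fold change -0.53, SE 0.06, edgeR adjusted p = 1.1e-06). PHLDA1 stood at 34.7, 32.9 and 32.4 CPM and then at 24.9, 24.3 and 21.8 CPM (-0.50, SE 0.05, adjusted p = 9.8e-07). For both genes the 3 libraries at 100 µM lay below all 12 at 0.001 to 1 µM.

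The phosphatase genes DUSP5 and DUSP4 fell by 0.50 and 0.36 on the log2 scale, the ETS factor genes ETV1 and ETV4 by 0.27 and 0.18, the receptor gene EPHA2 by 0.22 and FOSL1 by 0.24. IER3 and FOSL1 also stand on the immediate early list. The 8 became 4 without replicate 1 of 10 µM and 5 without any single library at 100 µM.

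**Figure D4:**
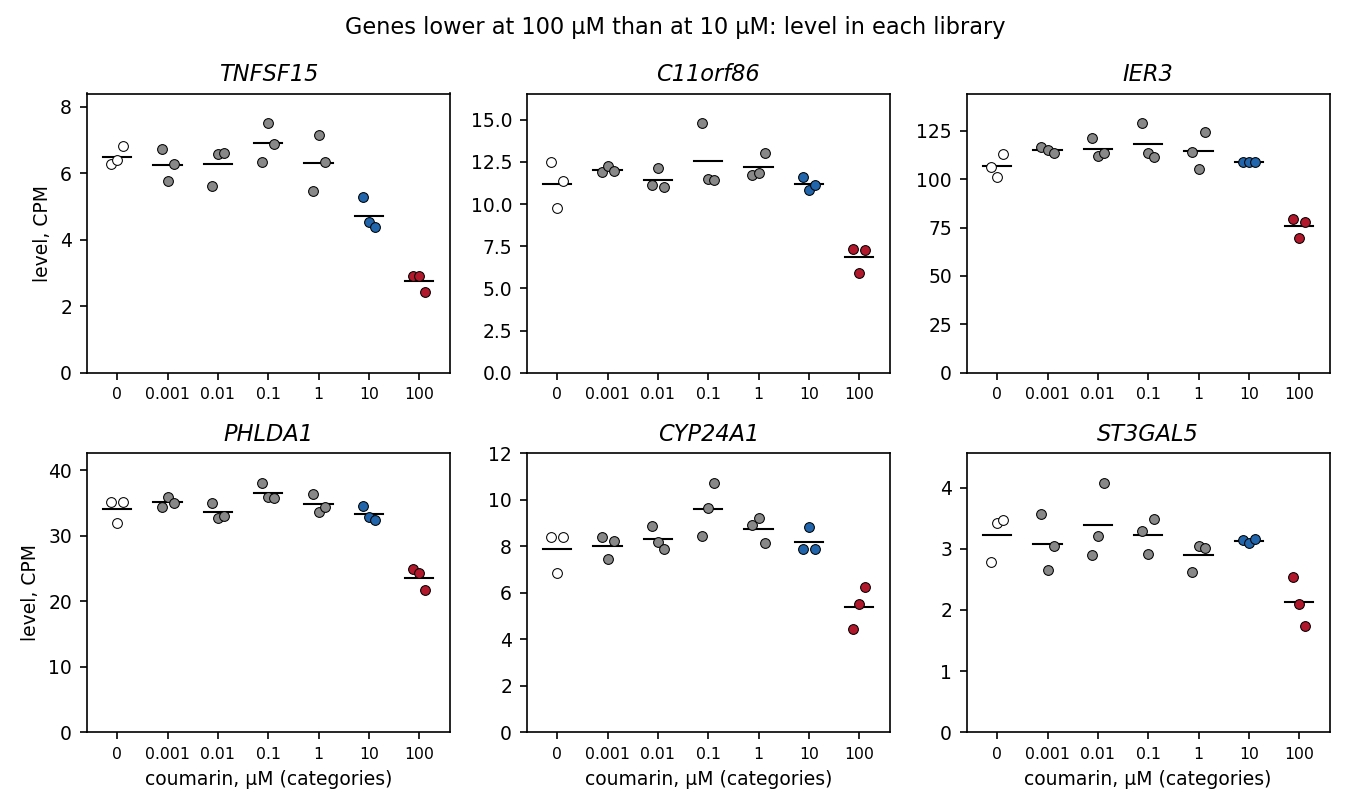
Levels in CPM (vertical axes, from 0) of 6 genes in each of the 21 libraries, by coumarin dose in µM (horizontal axis, doses as categories, 3 libraries each; bars are means). White points are untreated, grey 0.001 to 1 µM, blue 10 µM and red 100 µM: the 3 red points lie lowest in every panel, from 2.44 to 2.92 CPM for TNFSF15.

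Of 14 NF-κB targets 3 fell, 0 rose and 11 were not called. TNFSF15, a cytokine of the TNF family, stood at 5.28, 4.53 and 4.37 CPM at 10 µM and at 2.90, 2.92 and 2.44 CPM at 100 µM (log2 fold change -0.78, SE 0.13, edgeR adjusted p = 0.00049). Its libraries at 10 µM already lay below the 12 at lower doses, which ranged from 5.45 to 7.498 CPM. BIRC3 fell by 0.32 and NFKBIA by 0.18 on the log2 scale, NFKBIA losing its call with any single library left out, and the 3 became 1 without replicate 1 of 100 µM.

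Of 15 epithelial regulators and keratins 3 fell: KRT80 (log2 fold change -0.31), the epithelial factor ELF3 (-0.46, from 18.4 to 20.2 CPM to 13.7 to 15.0 CPM) and KRT18 (-0.14, a call lost with any single library left out). The other 12 were not called. WNT5A, a secreted ligand of noncanonical Wnt signalling, stood at 121 to 127 CPM at 10 µM and 87.8 to 92.9 CPM at 100 µM (-0.45, edgeR adjusted p = 1.0e-07), and its receptor ROR1 fell by 0.28 (a call lost without replicate 3 of 10 µM or replicate 1 or 3 of 100 µM), while 12 of the 14 on that list were not called. The summed levels of epithelial and mesenchymal markers, given above, moved down in the same libraries, and their part in these falls was not tested.

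The other genes with the largest falls and no overlap between the groups were mostly expressed at low levels. C11orf86 went from 11.6, 10.9 and 11.1 CPM to 7.31, 5.90 and 7.29 CPM (log2 fold change -0.71, SE 0.10, edgeR adjusted p = 3.5e-05). CYP24A1, which degrades active vitamin D, went from 7.89, 8.85 and 7.87 CPM to 4.45, 5.51 and 6.25 CPM (-0.59, SE 0.11). ZBED2, a zinc-finger gene, went from 2.17, 2.62 and 2.64 CPM to 1.58, 1.19 and 0.988 CPM (-0.99, SE 0.18, adjusted p = 0.0011). These 3 genes kept their calls in all 16 alternatives.

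KCNJ12, a potassium channel gene (-0.73), IGFBP1, an insulin-like growth factor binding protein gene (-0.64), SPOCK2 (-0.56), ST3GAL5, a ganglioside synthase gene (-0.56), and HRASLS2 (-0.52) each lost the call in 3 to 7 of 16 alternatives, and APBB1IP (-0.62) and ISPD (-0.60) in 1. Of the single libraries, KCNJ12 depended on replicates 1 and 3 of 10 µM and 2 and 3 of 100 µM, IGFBP1 on replicate 2 of 10 µM and 2 and 3 of 100 µM, APBB1IP on replicate 1 of 100 µM and ISPD on replicate 1 of 10 µM. HRASLS2 depended on each but replicate 2 of 100 µM, ST3GAL5 on each but replicate 1 of 100 µM, and SPOCK2 on each of the 6.

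The call of the 7SL RNA gene RN7SL2 (-0.84) depended on replicate 1 of 10 µM, at 62.7 CPM. Replicates 2 and 3 of that dose stood at 27.2 and 30.2 CPM and the libraries at 100 µM at 19.7 to 26.6 CPM. All of these lay below the 12 libraries at 0.001 to 1 µM (31.0 to 52.4 CPM). The RN7SL2 call was lost without replicate 1 of 10 µM and without replicate 2 or 3 of 100 µM. It was also lost with DESeq2 and with limma at both FPKM settings. LSM12P1, a pseudogene of LSM12 (-0.91), ranged from 10.3 to 25.7 CPM at the lower doses and is uncertain. IGFBP3, at 930 to 1014 CPM and 745 to 791 CPM, was a larger transcript pool that fell (-0.32, adjusted p = 5.8e-06).

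Carbon metabolism and proliferation genes moved little. Of 24 glycolysis and hypoxia genes 6 fell and 0 rose, led by ANKRD37 (log2 fold change -0.33), and LDHA fell by 0.15 on the log2 scale. That count was 1 without replicate 1 of 100 µM, and 2 without replicate 1 or 3 of 10 µM or replicate 2 of 100 µM. Of 24 mitosis genes 3 fell (CCNA2, ANLN and ECT2, by 0.18, 0.21 and 0.19), which became 1 without replicate 1 of either dose. None of 22 DNA replication genes was called by edgeR, with 6 at an unadjusted p under 0.05, 2 calls by DESeq2 and 1 by limma on log2(FPKM + 1), and a median of -0.04. None of 84 cytosolic ribosomal protein genes was called by edgeR either, with 29 at an unadjusted p under 0.05, 5 calls by DESeq2, all lower, and 0 by limma, and a median of -0.07. Sterol synthesis counted 1 faller among 23 (INSIG1, a call lost with any single library left out). Fatty acid synthesis counted 1 among 10 (ELOVL6, -0.21) and nuclear respiratory chain subunits 1 among 79 (ATP5PB). The ATP5PB call was lost without replicate 1 of either dose or replicate 3 of 100 µM. These were 4.35%, 10% and 1.27% of the lists, against 2.65% lower over all genes tested.

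Clustered histone genes, most of whose messages end without poly(A), counted 11 risers and 0 fallers among 37 tested, with a median of 0.46, in RNA selected on poly(dT). Whether the reads counted came from messages with or without poly(A) was not tested. HIST2H2BE went from 7.33, 4.695 and 5.64 CPM to 10.7, 11.9 and 11.1 CPM (log2 fold change 0.93, SE 0.11, edgeR adjusted p = 5.7e-06), and HIST1H2AC rose by 0.50 and HIST1H2BK by 0.23. Another 34 of the list had too few reads to test. The 11 became 5 without replicate 1 of 10 µM, 6 without replicate 3 of 100 µM and 7 without any other single library. Of 9 replacement variants, which are polyadenylated, 1 rose (H1F0, 0.17), a call lost without replicate 1 of 10 µM or replicate 3 of 100 µM.

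Remaining large rises were HELZ2, a helicase of the interferon response (from 2.14, 1.497 and 2.02 CPM to 3.46, 3.44 and 3.20 CPM, log2 fold change 0.82), and GRB10, an adaptor that restrains insulin signalling (6.04, 4.36 and 5.07 CPM, then 9.32, 8.69 and 8.75 CPM, 0.78, edgeR adjusted p = 3.7e-05). Of 15 interferon-stimulated genes 1 rose (IRF7, 0.58), 1 fell (SAMD9) and 13 were not called. The IRF7 call was lost without replicate 1 or 3 of 10 µM or replicate 1 of 100 µM, and that of SAMD9 without replicate 1 or 3 of either dose. The pseudogene AC138969.1 (0.80) lost its call without replicate 2 or 3 of either dose. SERF1B (1.39), which has a near-identical copy, ranged from 1.38 to 6.95 CPM at the lower doses, around its levels of 4.54 to 5.83 CPM at 100 µM. Its call was lost without replicate 1 or 2 of 10 µM or replicate 1 or 3 of 100 µM, and it is uncertain.

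A second test asked which genes changed by a different amount over the last step than over the step from 1 to 10 µM. The 10 µM libraries enter both steps, so each step's own values are given. Of 16065 genes 59 (0.367%) were called, with a difference above 0 for 33 and below 0 for 26 (edgeR adjusted p under 0.05). The count was 11 without replicate 3 of 10 µM, 12 without replicate 1 of 10 µM, 31 and 33 without replicate 1 of 1 and of 100 µM, and 36 without replicate 3 of 100 µM. With DESeq2 in place of edgeR it was 141.

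For CHAC1 the log2 fold change was 0.65 (SE 0.10) from 1 to 10 µM and 2.09 (SE 0.08) from 10 to 100 µM, a difference of 1.44 (SE 0.16, edgeR adjusted p = 3.4e-05). ADM2 changed by 0.19 (SE 0.13) and then 1.57, ATF3 by 0.23 (SE 0.10) and then 1.51, and SESN2 by 0.15 (SE 0.08) and then 1.11. Their differences were 1.37, 1.27 and 0.96, and these 4 genes were called under all 18 alternatives. INHBE changed by 0.27 and then 1.32 (difference 1.06, adjusted p = 0.013), a call lost without replicate 1 or 3 of 10 µM.

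ASNS, the remaining marker, had a difference of 1.14 that did not pass (SE 0.28, edgeR adjusted p = 0.066), from 0.04 and then 1.18. ATF4 had a difference of 0.13 (adjusted p = 0.47). STC2 (0.47), PCK2 (0.52), TRIB3 (0.46) and DDIT3 (0.63) passed but lost the call in 2 to 8 of 18 alternatives, for PCK2 and TRIB3 without replicate 3 of 10 µM, for STC2 without replicate 1 or 2 of 10 µM or 1 of 100 µM, and for DDIT3 without any replicate of 10 µM, replicate 1 or 2 of 1 µM, or replicate 2 or 3 of 100 µM.

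Some differences came at least in part from the 10 µM libraries. SLFNL1-AS1, an RNA antisense to SLFNL1 and SCMH1, stood at 9.29, 12.5 and 9.84 CPM at 10 µM, with 2 of the 3 below the 12 libraries at lower doses (11.7 to 15.9 CPM). At 100 µM SLFNL1-AS1 stood at 18.1, 19.8 and 18.9 CPM, above all 12 of those libraries. It fell by 0.42 over the preceding step and rose by 0.85 over the last (difference 1.28, edgeR adjusted p = 0.00076). DKK1, a secreted Wnt inhibitor, went the other way: 10.8 CPM on average at 1 µM, 13.3, 12.2 and 13.6 CPM at 10 µM, and 10.6, 9.17 and 10.8 CPM at 100 µM, back within the range of the lower doses (difference -0.64, adjusted p = 0.018). LDHB, a lactate dehydrogenase subunit gene, likewise went from 100.1 to 118.9 and back to 102.3 CPM on average (-0.46).

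For MAFF, a small MAF factor, the log2 fold change was 0.19 and then -0.41 (difference -0.60, edgeR adjusted p = 0.0074), and the libraries at 100 µM, at 16.3 to 16.6 CPM, lay below the lower doses too. IER3 and PHLDA1 changed by -0.07 and -0.06 over the preceding step, so their differences of -0.46 and -0.43 came almost wholly from the last. ZBED2 had the difference furthest below 0 among the named genes that passed (-1.32), at low levels. DKK1 and LDHB lost the call without replicate 1 or 3 of 10 µM, MAFF without replicate 3 of 10 µM, IER3 and PHLDA1 without any replicate of 10 µM among other libraries, and ZBED2 in 10 of 18 alternatives.

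**Figure D5:**
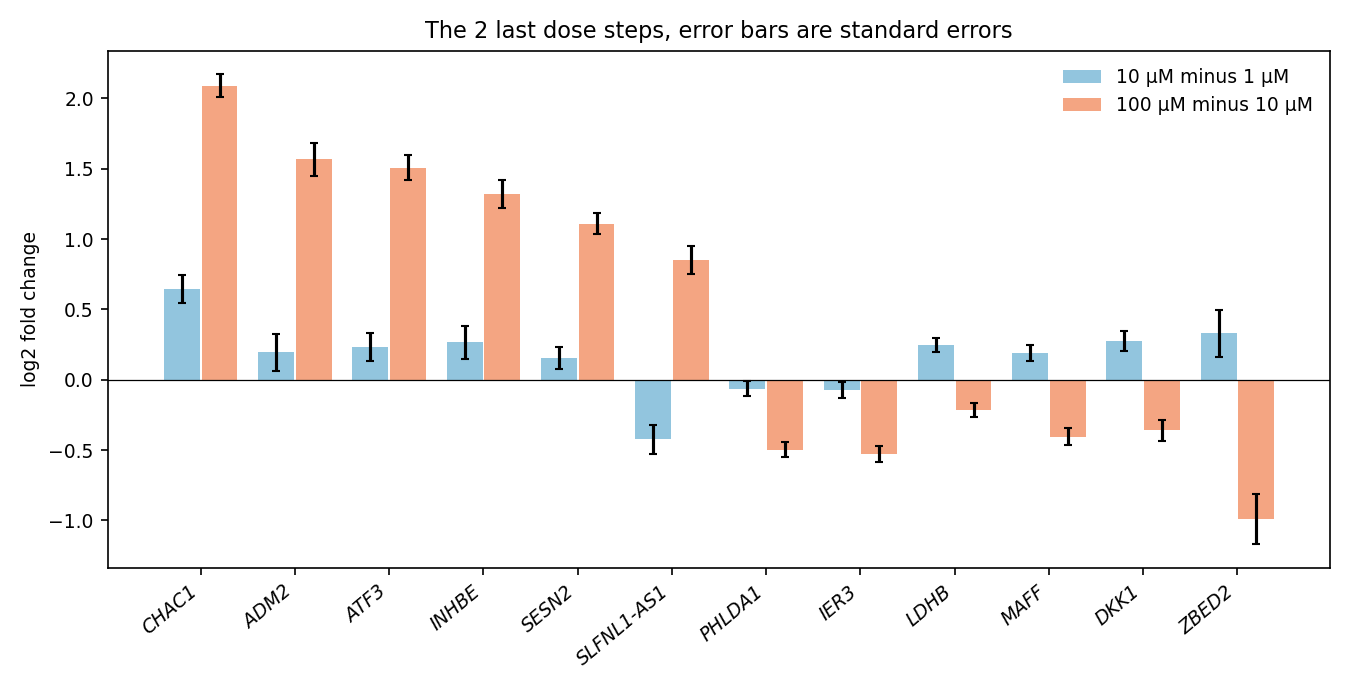
Log2 fold change (vertical axis) of 12 genes, the 6 largest differences above 0 and the 6 largest below 0 between the last 2 dose steps among genes called for that difference at the level asked of named genes (larger differences that did not pass, such as that of ASNS, are not shown): blue bars give 10 µM against 1 µM and orange bars 100 µM against 10 µM, and error bars are standard errors. CHAC1 changed by 0.65 and then by 2.09. SLFNL1-AS1, DKK1, LDHB, MAFF and ZBED2 changed in opposite directions over the 2 steps. Both steps share the 10 µM libraries.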

How the data were processed

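RNA purified on poly(dT) beads was sequenced from 21 libraries, per the labels' protocols. The authors deposited 1 table of read counts per gene for 58735 gene IDs, with FPKM values beside them. HISAT2, DESeq2 and GRCh38 are named in the submitters' processing notes without roles; for the counting tool and its use of strand, nothing was given in the sources used here. The gene IDs and spans equal those of GENCODE 29. The deposited FPKM values equalled count over gene length over a constant per library, so they were used only in an alternative, as log2(FPKM + 1) and log2(FPKM + 0.1) of the deposited values with limma 3.58.1.

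The deposited counts were tested with edgeR 4.0.16 in R 4.3.3 (filterByExpr, TMM scaling, quasi-likelihood test, Benjamini-Hochberg adjusted p under 0.05). The 18 treated libraries shared 1 fit with 6 dose means and 12 residual degrees of freedom. Contrasts were 100 minus 10 µM, and that step minus the step from 1 to 10 µM. Fold changes are log2 values from this fit, and levels are TMM-scaled CPM computed from the deposited counts. The p-values measure the spread between the samples called biological replicates, and samples entered groups by their labels.

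On simulated counts of 16065 genes, 50 genes each were changed by 0.322, 0.585, 1 and 2 on the log2 scale. In that order, the contrast of 100 with 10 µM recovered 82, 98, 100 and 100% of them, with 11 false calls. The contrast of steps recovered 42, 72, 94 and 100%, with 12 false calls. Recovery among genes of few reads was not tested, so these shares do not cover such genes.

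The libraries compared and the 44 gene lists were chosen with earlier results of these data known. Named were the 14 largest rises and 14 largest falls among genes that passed, had no overlap and averaged 1 or more on the log2(CPM + 0.5) scale, the 6 largest step differences of each sign among those called at that level, up to 5 members per list with the smallest p, and 11 genes in every case (CHAC1, ATF3, ASNS, SESN2, ATF4, DDIT3, TRIB3, ADM2, STC2, INHBE and PCK2). Other names, such as ATF5, CHAC2, RARS, MYC, NR4A1, DUSP4, ETV4, FOSL1 and SLC7A5, were chosen after their values were seen, to complete a count. Alternatives were DESeq2 1.42.0, its size factors, other filters, other sets of libraries, a replicate block, a length offset, limma and each library left out. Promoters are from RefSeq (GRCh38.p14). Figures were drawn with matplotlib 3.10.9.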

Additional observations from a re-analysis of the deposited data

How the results depend on the processing

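Of 127 named genes called for 100 against 10 µM, 67 kept their call and direction under every alternative run and 60 lost the call under at least 1; CHAC1, ADM2, ATF3, INHBE, ASNS and SESN2 were among the 67. The 773 calls became 44 when a change of at least 2-fold was also asked, and ranged from 254 to 704 with 1 of the 6 libraries left out. The 59 step differences became 141 with DESeq2, 233 with no filter on low counts, 39 with all 21 libraries in the fit, 36 with a replicate block and 38 with limma on log2(FPKM + 1), where 14 were above 0 and 24 below in place of 33 and 26, and ranged from 11 to 67 with 1 library left out. Of 16 named step differences, 5 kept their call throughout (CHAC1, ADM2, SLFNL1-AS1, ATF3 and SESN2). Apart from the smaller number of samples or genes that an alternative uses by construction, the cause was not tested. With limma on log2(FPKM + 1) the calls for 100 against 10 µM were 261 higher and 457 lower in place of 348 and 425. ATF5, not called, changed sign to 0.0029 without replicate 2 of 10 µM and reached -0.0896 without replicate 1 of 10 µM; FAM156A changed from a rise to -0.27 without replicate 3 of 100 µM, and reached 2.97 without replicate 2 of 100 µM. Same-numbered samples of the 2 doses did not deviate together (correlations -0.046, -0.059 and 0.12), so the numbers were not taken as a pairing; with a replicate block 686 genes were called for 100 against 10 µM. Depth limits genes near 0.1 CPM, such as FGF21 and AC005326.1, to a few reads per library.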

Other observations

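Host genes of small nucleolar RNAs rose as a group of small changes: 8 of 14 tested were higher at 100 than at 10 µM and 0 lower, with a median log2 fold change of 0.18. They included SNHG1 (0.25), SNHG7 (0.24), ZFAS1 (0.26), SNHG12 (0.24) and GAS5 (0.18), noncoding RNAs that are degraded in the course of translation. The 8 became 2 without replicate 1 of 10 µM and 5 without replicate 1 or 3 of 100 µM. By class of gene, long noncoding RNAs counted 45 higher (1.96%) and 6 lower (0.262%) of 2293, with a median of 0.13, and protein-coding genes 286 higher (2.31%) and 405 lower (3.27%) of 12372. Over all genes 2.17% were higher and 2.65% lower, so the share of long noncoding RNAs called higher was near that of all genes. Long noncoding RNAs summed to 8282, 8831 and 8767 CPM at 10 µM and 9103, 9262 and 9226 CPM at 100 µM, and replicate 1 of 1 µM reached 9360 CPM. The part of these library levels in the median was not tested.

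Among 1011 tested transcription factor genes in the families that the count table names, 47 rose and 20 fell (6.63% called). Of the 39 genes in the family named bZIP there, 9 rose (ATF3, ATF4, DDIT3, FOS, FOSB, JDP2, JUN, NFE2L1 and XBP1). Another 3 of them fell (DBP, FOSL1 and MAFF). That family leaves out CEBPB and CEBPG, which also rose. Of 19 ETS genes 3 fell (ELF3, ETV1 and ETV4) and 0 rose. The remaining lists gave few calls: collagens and their receptors counted 2 higher (COL1A1 and DDR2) and 1 lower (DDR1) of 17. The 2 became 0 without replicate 1 or 3 of either dose, and the 1 became 0 without replicate 1 of 10 µM or replicate 2 or 3 of 100 µM. The list of insulin-like growth factor binding proteins and FOXO genes counted 1 higher (FOXO3, lost without replicate 1 or 2 of either dose) and 2 lower (IGFBP1 and IGFBP3) of 14. Mitochondrially encoded genes counted 1 lower of 15 (MT-RNR1, -0.18, lost without replicate 3 of 10 µM or replicate 1 of 100 µM). That was 6.67% of the list, against 2.65% lower over all genes.

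The following genes were chosen after their values were seen. FAM156A, which has a near-identical copy, stood at 0.586, 0.748 and 0.566 CPM at 10 µM and at 0.560, 0.483 and 9.18 CPM at 100 µM, so that its call rests on 1 library. LSM12 rose from 45.2, 50.4 and 50.3 CPM to 60.8, 64.4 and 60.0 CPM (log2 fold change 0.34) while its pseudogene LSM12P1 fell by 0.91 on the log2 scale. TXNIP, which restrains glucose uptake, rose from 28.3, 27.9 and 29.2 CPM to 40.3, 41.8 and 43.4 CPM (0.56).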
